A study of Mus musculus with 7 samples.

Results

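The mitochondrial protein import machinery was described as 34 genes measured by 67 probe sets, out of 45101 probe sets on the array and 18193 genes that could be named. Members were the probe sets annotated to exactly 1 gene symbol that begins with Tomm or Timm and a digit, or that is one of 13 further import genes. Of these 13, Dnajc19 and Immp2l were not analysed here, because they had no probe set with 1 symbol, and Tomm5 and Tomm6 were not analysed for the same reason. All 7 arrays were made from quadriceps femoris muscle of mice. The 3 mutant mice overexpressed a mutant form of Twinkle, the helicase of mitochondrial DNA, and were 24, 24 and 21 months old for replicates 1 to 3. The 4 wild-type mice were 26, 24, 21 and 23 months old for replicates 1 to 4. The sources used here do not give the promoter of the transgene, the number of founder lines or the sex of the mice. The mutant mice are a model of progressive external ophthalmoplegia, a mitochondrial muscle disease, and the comparison asks whether import genes differ between mutant and wild-type muscle, and whether outer membrane genes differ from inner membrane genes in this.

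Nearly all mitochondrial proteins are made in the cytosol and enter through the TOM complex, the gate of the outer membrane. From there they are sorted to the SAM complex, which folds barrel proteins into the outer membrane, to the small TIM chaperones and the disulfide relay of the intermembrane space, or to the TIM22 and TIM23 complexes of the inner membrane. A chaperone motor on the matrix side pulls precursors through TIM23, and peptidases then cut off their targeting sequences.

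A rough level class of each probe set was read from the spacing of the deposited numbers, and used to choose among a gene's probe sets. Of the 34 genes, 21 lay in the highest class, between 8 and 16 on the log2 scale. Another 11 lay between 4 and 8. Tomm20l, a relative of the receptor Tomm20, and Timm8a2, a relative of the chaperone Timm8a1, lay between 2 and 4. Each value below is a log2 distance from the middle of the 7 arrays, averaged over a gene's probe sets in its highest level class. They show differences between arrays and cannot rank genes by level, and neither can the classes, since different probe sets respond differently. Of the genes named, Timm10, Timm13, Timm21, Tomm7 and Tomm20l were picked with their values in view, and the others by a rule. In a bulk muscle sample, fewer cells of a type and less RNA per cell cannot be told apart.

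Promoter sequences are shown for 4 members whose values turn out below to run together or in opposite directions over the arrays. All 4 hold the letters CCGGAAG or their reverse complement, set in capitals. Some other members with these array patterns do not, so the 4 cannot show whether letters and pattern go together. These letters are the core of the site bound by ETS factors such as GABP, a known activator of nuclear genes for mitochondria. The windows run from 250 bases before to 50 after the gene start, from RefSeq on the build GRCm38.p6. Timm10 and Timm8b encode small chaperones of the intermembrane space, Timm10b a small subunit of the TIM22 complex, and Tomm70a the outer membrane receptor for carrier proteins.
Timm10 (chr2:84826771-84827070, plus strand): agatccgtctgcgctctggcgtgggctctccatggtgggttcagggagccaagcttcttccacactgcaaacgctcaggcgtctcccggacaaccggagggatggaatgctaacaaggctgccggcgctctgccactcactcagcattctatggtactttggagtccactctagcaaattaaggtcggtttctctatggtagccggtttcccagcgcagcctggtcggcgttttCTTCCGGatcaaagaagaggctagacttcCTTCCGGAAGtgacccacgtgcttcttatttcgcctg
Timm10b (chr7:105640195-105640494, plus strand): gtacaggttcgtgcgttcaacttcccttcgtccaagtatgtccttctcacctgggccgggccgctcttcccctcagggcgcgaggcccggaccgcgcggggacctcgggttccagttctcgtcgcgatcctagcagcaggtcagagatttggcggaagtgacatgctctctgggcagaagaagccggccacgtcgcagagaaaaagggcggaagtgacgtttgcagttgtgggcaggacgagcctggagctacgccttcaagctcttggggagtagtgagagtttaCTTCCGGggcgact
Timm8b (chr9:50603651-50603950, plus strand): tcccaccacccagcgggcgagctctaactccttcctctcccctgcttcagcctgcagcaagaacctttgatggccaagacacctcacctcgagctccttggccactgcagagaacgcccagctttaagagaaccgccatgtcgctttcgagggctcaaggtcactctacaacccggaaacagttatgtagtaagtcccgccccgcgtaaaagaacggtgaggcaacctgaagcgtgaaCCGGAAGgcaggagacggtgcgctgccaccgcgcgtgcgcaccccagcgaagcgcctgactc
Tomm70a (chr16:57121464-57121763, plus strand): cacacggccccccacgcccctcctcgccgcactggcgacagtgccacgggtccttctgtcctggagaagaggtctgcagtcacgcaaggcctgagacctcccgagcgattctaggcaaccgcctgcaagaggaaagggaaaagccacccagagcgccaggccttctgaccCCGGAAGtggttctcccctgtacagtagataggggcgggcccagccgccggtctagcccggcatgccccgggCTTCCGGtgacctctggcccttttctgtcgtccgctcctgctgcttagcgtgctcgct

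The CCGGAAG letters stood in 14 of the 30 import genes with a promoter in the RefSeq table, that is in 15 of their 32 windows (46.9%), against 8.86% of all 32851 windows. Timm10 had 3 matches, of which 2 overlap, Tomm70a had 2, and Timm10b and Timm8b had 1 each. The core letters AAGATGGCG, bound by YY1, stood in 3 import genes (Immp1l, Mtx1 and Timm50) or 9.38% of their windows, against 1.40% of all windows. The NRF-1 core motif (0.971% of all windows) and the letters TGATGNAAT of a stress element bound by ATF4 (0.965%) were not in any of the 32 windows on either strand. A match is a description of the letters and was not tested as a binding site.

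The labels disagree on the tissue, since the free text of every sample says cerebellum where title, source and tissue say quadriceps. Of 10 markers of muscle fibres, 10 were in the highest level class, against 1 of 10 for cerebellum (Pvalb, which fast muscle also makes). Markers of fibre types and other cells differed between arrays within a group and between the groups. The mean of 8 slow fibre genes was -3.89 and -2.38 in wild-type replicates 1 and 2 against -0.12 to 0.70 in the other 5 arrays, and all 8 genes were above 0 as mutant minus wild type, with a mean difference of 1.29. Endothelial markers (5 of 5 measured) were also all above 0, with list means of 0.02 to 0.22 in the mutants and -0.40 to 0.09 in wild type, a mean difference of 0.27 that exceeds that of every import gene. Of these markers, Flt1, an endothelial receptor named after its value was seen, had a limma unadjusted p under 0.05, and none of these lists had a called gene. Muscle fibre markers averaged -0.54 in wild-type replicate 3 against at least -0.02 elsewhere. That low mean rested on Myh4 (-1.93), Ryr1 (-1.29), Ttn (-1.26) and Neb (-0.70). The remaining muscle fibre markers lay between -0.15 and 0.08 in this array. Its adipocyte (0.93), leukocyte (0.77) and fibroblast (1.00) means were the highest of all arrays. Adipocyte (6 of 8 markers measured) and leukocyte (7 of 7) means were lowest in wild-type replicate 1, at -0.90 and -0.63. The mean of all 34 import genes was also lowest in that array, at -0.15. Wild-type replicate 4 had almost the same leukocyte mean, at -0.63, with an import gene mean of -0.06. The adipocyte, leukocyte and import gene means were all highest in wild-type replicate 3, where that of the import genes was 0.14. The part of these cell markers in the import values was not tested. Without wild-type replicates 1 and 2, the outer mean difference was -0.10 and the inner 0.01.

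In the values over all genes, mutant replicate 2 and wild-type replicates 1 and 4 stood apart from the other 4 arrays. Over all 18193 genes the correlation between arrays was 0.35 to 0.50 within these 3 and -0.49 to -0.18 between them and the others, and over the 34 import genes it was 0.69 to 0.82 and -0.72 to -0.26. These are correlations across genes of values centred over the same arrays, and genes are not independent replicates. The labels give no batch that covers these arrays, and they hold 1 mutant and 2 wild-type mice. The control probe set for the B1 repeat was also low in them, at -0.87, -1.29 and -0.71 against 0.00 to 0.72 in the other 4. The 5 prime minus 3 prime values of beta-actin and Gapdh, a sign of RNA integrity, did not set these 3 apart. That of beta-actin did separate the genotypes, at -0.14, -0.01 and -0.10 in mutant replicates 1 to 3 against 0.02, 0.12, 0.12 and 0.08 for wild type. Wild-type replicate 3 had a Gapdh value of -0.55 against at least -0.04 elsewhere, and mutant replicate 1 an 18S ribosomal RNA value of 3.19 against at most 0.56. The part of these in the results was not tested.

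No import gene passed the test between mutant and wild-type muscle over all genes. With limma, 0 of the 34 import genes had an adjusted p under 0.05, where 0 of all 18193 genes (0%) did, and 0 of the 34 had an unadjusted p under 0.05, where 1.44% of all genes did. The smallest unadjusted p among them was 0.156, for Tomm20. Adjusted p-values were 1.00 for all 34. In none of the 34 did the 3 mutant arrays lie all above or all below the 4 wild-type arrays, where 0.874% of all genes lay above and 1.2% below. Titles mark the mice of a group as biological replicates.

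Differences of the import genes were small as well as not called. They ran from -0.16 for Tomm20 to 0.17 for Timm29 on the log2 scale, mutant minus wild type, with 21 genes above 0 and 13 below, where 46.5% of all genes were above 0. Their median was 0.03 against -0.01 over all genes, and the median size regardless of sign was 0.06 against 0.08. All genes are not matched in level, since 61.8% of import genes were in the highest level class against 19.8% of all genes. The part of this in the sizes was not tested. The 95% interval of the difference from limma lay within 0.5 log2 units of 0, or 1.41-fold, for 23 of the 34 genes, and within 1 log2 unit for all 34. At the widest, the intervals reached 0.567-fold for Tomm70a and 1.86-fold for Tomm7. Differences inside these intervals remain possible given the 7 arrays. The intervals are per gene and not adjusted for the number of genes, so they are not a detection limit of the test.

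**Figure D1:**
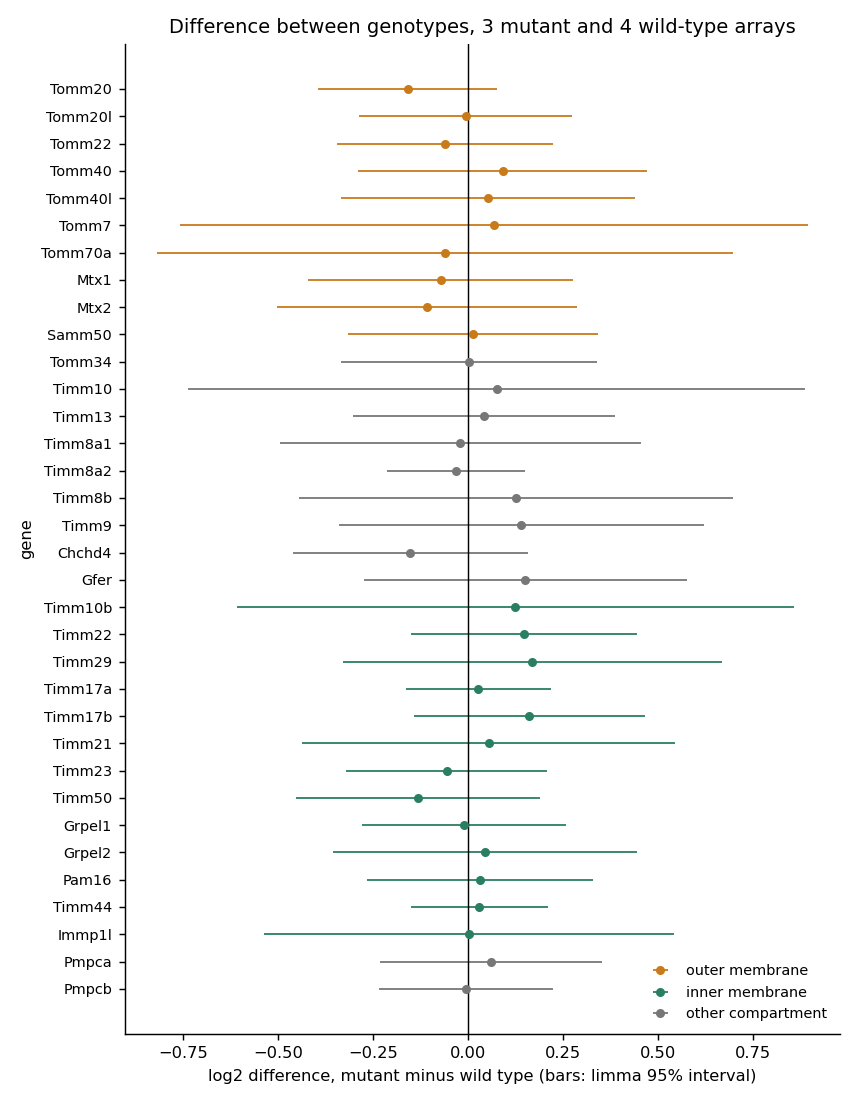
Log2 difference between mutant and wild-type muscle for each of the 34 import genes (x axis), with genes down the y axis in order of their role and colours for the membrane. Points are limma estimates from 3 mutant and 4 wild-type arrays and bars are 95% intervals. Points lie between -0.16 and 0.17, and every bar crosses 0.

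The 7 measured TOM genes, 4 below 0 and 3 above, had a median difference of -0.01. Tomm20, the receptor that first binds presequence proteins, lay at -0.24, -0.20 and -0.06 in mutant replicates 1 to 3. Wild-type replicates 1 to 4 lay at -0.08, -0.10, 0.18 and -0.01. Mutant replicates 1 and 2 were below all wild-type arrays, and mutant replicate 3 lay inside their range. Its difference was -0.16 ± 0.10 (SE; limma unadjusted p = 0.156, adjusted p = 1.00). The 6 probe sets of Tomm20 gave differences from -0.21 to 0.06. Tomm22, the central receptor that organises the complex, averaged -0.01 ± 0.08 (SD, n = 3) over the mutants and 0.05 ± 0.19 (SD, n = 4) over the wild types. Tomm40, the pore itself, averaged -0.01 ± 0.09 (SD, n = 3) and -0.10 ± 0.29 (SD, n = 4), with wild-type replicate 1 lowest at -0.50. Its relative Tomm40l averaged 0.07 ± 0.25 (SD, n = 3) and 0.02 ± 0.23 (SD, n = 4). The differences of these pore genes were 0.09 ± 0.16 (SE) for Tomm40 and 0.05 ± 0.17 for Tomm40l.

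Tomm7 and Tomm70a spread most widely among the outer membrane genes. Tomm7, a small subunit that shapes the assembly of the complex, lay at 0.00, -0.38 and 0.22 in the 3 mutants and at -0.72, 0.10, 0.72 and -0.58 in the 4 wild types. The mutant values lay inside the wild-type range, and the difference was 0.07 ± 0.35 (SE). Tomm70a lay at -0.47, 0.58 and -0.13 in the 3 mutants and at 0.57, -0.09, -0.54 and 0.28 in the 4 wild types. Here too the groups overlapped almost completely, with a difference of -0.06 ± 0.32 (SE). Where Tomm7 was low, Tomm70a was high, in mutant replicate 2 and in wild-type replicates 1 and 4. These values rest on probe sets of the highest level class, and those of lower classes were mixed. A lower Tomm7 probe set lay at 0.25, 0.00 and 0.20 in those arrays. Of the lower Tomm70a probe sets, one lay at 0.21, 0.11 and -0.15 there and another at 0.48, 0.59 and 0.38.

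Of the SAM genes, Samm50, the barrel that inserts other barrels, differed by 0.01 ± 0.14 (SE), and its metaxin partners by -0.07 ± 0.15 for Mtx1 and -0.11 ± 0.17 for Mtx2. Wild-type replicate 3 was the highest array for both metaxins, at 0.36 for Mtx1 and 0.54 for Mtx2. Mtx2 was 0.00, 0.00 and -0.07 in the 3 mutants and -0.19, 0.00 and 0.00 in wild-type replicates 1, 2 and 4. Without wild-type replicate 3 the difference of Mtx2 was 0.04 and that of Mtx1 0.04, so the sign of both rests on that array. Tomm34, a cytosolic co-chaperone of import despite its name, differed by 0.00 ± 0.14 (SE).

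In the intermembrane space, the 6 small TIM chaperones, which shield hydrophobic precursors on their way between the membranes, had a median difference of 0.06, with 4 above 0 and 2 below. Timm8b measured 0.00, -0.33 and 0.24 in the 3 mutants and -0.55, 0.09, 0.31 and -0.47 in wild type, a difference of 0.12 ± 0.24 (SE). Timm9 measured 0.18, 0.00 and 0.00 in the 3 mutants and -0.59, 0.14, 0.28 and -0.14 in wild type, a difference of 0.14 ± 0.21. In both, the mutant values fell within the wild-type range. Timm8a2 differed by -0.03 ± 0.08 and Timm8a1, whose human counterpart is mutated in deafness-dystonia syndrome, by -0.02 ± 0.20. Chchd4 (also called MIA40) and Gfer (also called ALR) form the disulfide relay that traps small proteins in this space by oxidising them. Chchd4 averaged -0.07 ± 0.22 (SD, n = 3) over the mutants and 0.08 ± 0.15 (SD, n = 4) over the wild types, a difference of -0.15 ± 0.13 (SE). It was -0.03 without mutant replicate 3 and -0.08 without wild-type replicate 3. Gfer averaged 0.11 ± 0.39 (SD, n = 3) and -0.04 ± 0.13 (SD, n = 4), a difference of 0.15 ± 0.18. Mutant replicate 2 was highest of all arrays for Gfer, at 0.56, and without it the difference was -0.07.

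The TIM22 complex inserts carrier proteins into the inner membrane, and the 3 of its genes among the members were all above 0, none of them called. Timm22, the channel, lay at 0.16, 0.11 and -0.03 in the 3 mutants and at -0.07, -0.33, 0.17 and -0.03 in wild type, a difference of 0.15 ± 0.13 (SE). Its 2 probe sets gave -0.02 and 0.31. Timm29, an accessory subunit, lay at -0.01, 0.34 and -0.07 in the 3 mutants and at 0.19, 0.00, -0.63 and 0.10 in wild type, a difference of 0.17 ± 0.21 that was -0.01 without wild-type replicate 3. Timm10b differed by 0.12 ± 0.31. The groups overlapped in all 3 genes.

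The TIM23 complex carries presequence proteins across the inner membrane, and its 5 genes, 3 above 0 and 2 below, had a median difference of 0.03. Timm23, the channel, differed by -0.06 ± 0.11 (SE), and Timm50, which receives precursors from TOM, by -0.13 ± 0.14. Timm17a and Timm17b are paralogues that occur in alternative forms of the complex. Timm17a, a single probe set in the highest level class, stayed close to its median in every array, with 0.07, 0.00 and 0.00 in the 3 mutants and -0.10, 0.09, 0.00 and -0.01 in wild type. Its difference was 0.03 ± 0.08. Timm17b lay at -0.18, 0.28 and 0.10 in the 3 mutants and at -0.16, -0.04, -0.23 and 0.04 in wild type, a difference of 0.16 ± 0.13 that was 0.28 without mutant replicate 1 and 0.05 without mutant replicate 2.

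One probe set of Timm17b was the only one of the 67 to separate the groups. It read 0.26, 0.12 and 0.19 in the 3 mutants, against -0.36, 0.00, 0.00 and -0.20 in wild type. Here all mutant arrays were above all wild-type arrays. The difference was 0.33 ± 0.11 (SE), with a limma unadjusted p = 0.0226 and an adjusted p = 1.00 over all 34945 probe sets. Among all probe sets, 1.79% had an unadjusted p under 0.05 and 1.1% had all mutant arrays above wild type, with 0.941% all below, so 1 of 67 is close to that background. The other Timm17b probe set, in the same level class, differed by -0.01 and ranged from -0.63 in mutant replicate 1 to 0.44 in mutant replicate 2.

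Differences of the import motor and the peptidases lay between -0.01 and 0.06. Timm44, which tethers the motor to the channel, differed by 0.03 ± 0.08 (SE), and Pam16, a regulator of its co-chaperones, by 0.03 ± 0.13. Grpel1, the nucleotide exchange factor of the motor, lay at -0.12, 0.23 and -0.19 in the 3 mutants and at -0.06, 0.00, 0.00 and 0.00 in wild type, and differed by -0.01 ± 0.11. Its paralogue Grpel2 lay at -0.14, 0.43 and -0.24 in the 3 mutants and at 0.05, -0.23, 0.00 and 0.06 in wild type, and differed by 0.04 ± 0.17. In both exchange factors mutant replicate 2 was the highest array and mutant replicate 3 the lowest. Pmpca and Pmpcb, the subunits of the matrix peptidase that cuts off presequences, differed by 0.06 ± 0.12 and -0.01 ± 0.10. Immp1l, an inner membrane peptidase, differed by 0.00 ± 0.23.

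Outer membrane genes (10, the TOM and SAM genes) averaged -0.12, 0.07 and -0.0037 in the 3 mutants, and -0.13, -0.0044, 0.15 and 0.01 among the wild types. The groups overlapped, and the difference was -0.02 on the log2 scale. Inner membrane genes (13, of TIM22, TIM23, the motor and the peptidase) averaged -0.05, 0.08 and 0.0019 in the 3 mutants, and -0.13, -0.0029, 0.06 and -0.06 among the wild types, a difference of 0.04. Of the outer genes 4 were above 0 and 6 below, and of the inner genes 10 were above 0 and 3 below, beside 46.5% of all genes above 0. The outer mean minus the inner mean was -0.08, -0.01 and -0.0056 in the 3 mutants, and -6.3e-06, -0.0016, 0.09 and 0.07 among the wild types. All mutant arrays thus lay below all wild-type arrays, but the nearest values, those of mutant replicate 3 and wild-type replicate 2, were almost equal. The beta-actin 5 prime minus 3 prime value split the arrays by genotype in the same way, with mutants at -0.14 to -0.01 and wild types at 0.02 to 0.12, and its part in this separation was not tested. The difference of -0.07 stayed below 0 in every setting tried, from -0.11 to -0.04. Since mutant arrays all lay below wild-type arrays, leaving out or splitting arrays could not turn the sign, so those settings are no support. The difference is one of means over chosen genes, so no p is given for it.

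**Figure D2:**
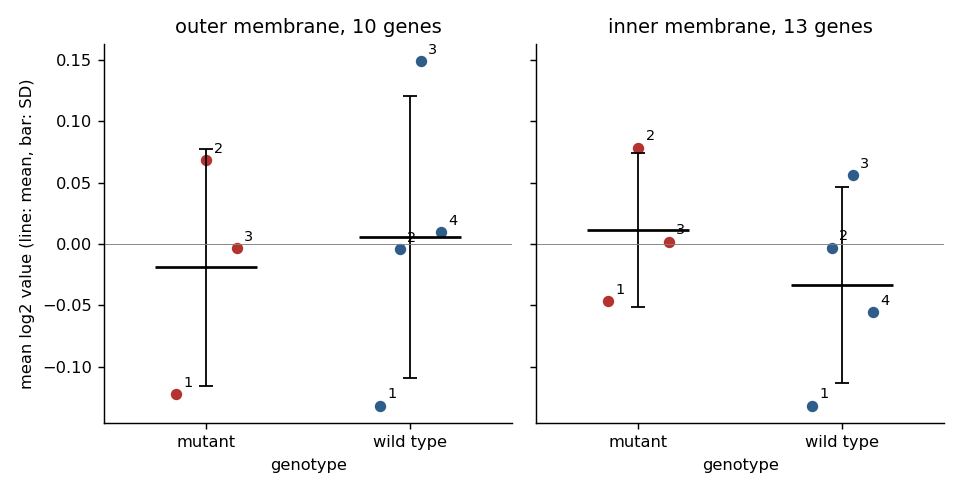
Mean log2 value per array (y axis) of 10 outer membrane genes (left) and 13 inner membrane genes (right) in mutant and wild-type muscle (x axis), with replicate numbers beside the points. Lines are group means and bars are SDs over 3 or 4 arrays. Wild-type replicate 1 is the lowest array in both panels, at -0.13, and the groups overlap.

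Of the 34 import genes, 15 followed the division of mutant replicate 2 with wild-type replicates 1 and 4 from the other 4 arrays. Some did so upward and some downward, and the gene values of the remaining import genes did not follow it. Single probe sets of some remaining genes did, and Tomm20 and Pmpcb had probe sets that did so in each direction. Samm50, counted as upward, averages an upward and a downward probe set of the same level class. The division of genes therefore depends in part on averaging probe sets. The division was chosen after seeing the data. In 8 of 34 (23.5%) the 3 arrays were all below the other 4, where 11.1% of all genes were, and in 7 of 34 (20.6%) they were all above, where 9.82% were. The low group held Tomm7, Tomm40, Timm10, Timm10b, Timm8b, Timm8a1, Timm13 and Immp1l, which includes 4 of the 6 small TIM chaperones. Timm10b lay at -0.71 to -0.41 in the 3 arrays and at 0.10 to 0.49 in the other 4. Timm10 lay at -0.54 to -0.28 and at 0.00 to 0.80, and Tomm7 at -0.72 to -0.38 and at 0.00 to 0.72. For Timm8a1, Timm13 and Immp1l the nearest arrays of both sets were almost equal. The high group held Tomm70a, Samm50, Gfer, Timm23, Timm29, Pam16 and Grpel2. Here too the nearest arrays of both sets were almost equal for Timm23, at 0.02 and 0.00. They were close for Samm50, at 0.06 and 0.01, and for Grpel2, at 0.05 and 0.00. Tomm70a lay at 0.28 to 0.58 in the 3 arrays and at -0.54 to -0.09 in the others, and Gfer at 0.04 to 0.56 and -0.21 to -0.05. Of the 7 low genes with a known promoter, 3 held CCGGAAG, and these are the 3 low genes shown above. Of the 6 such high genes 3 did, and of the 17 such genes that did not follow the division 8 did. The letters shown above for Timm10, Timm10b, Timm8b and Tomm70a thus stood in genes of every kind.

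**Figure D3:**
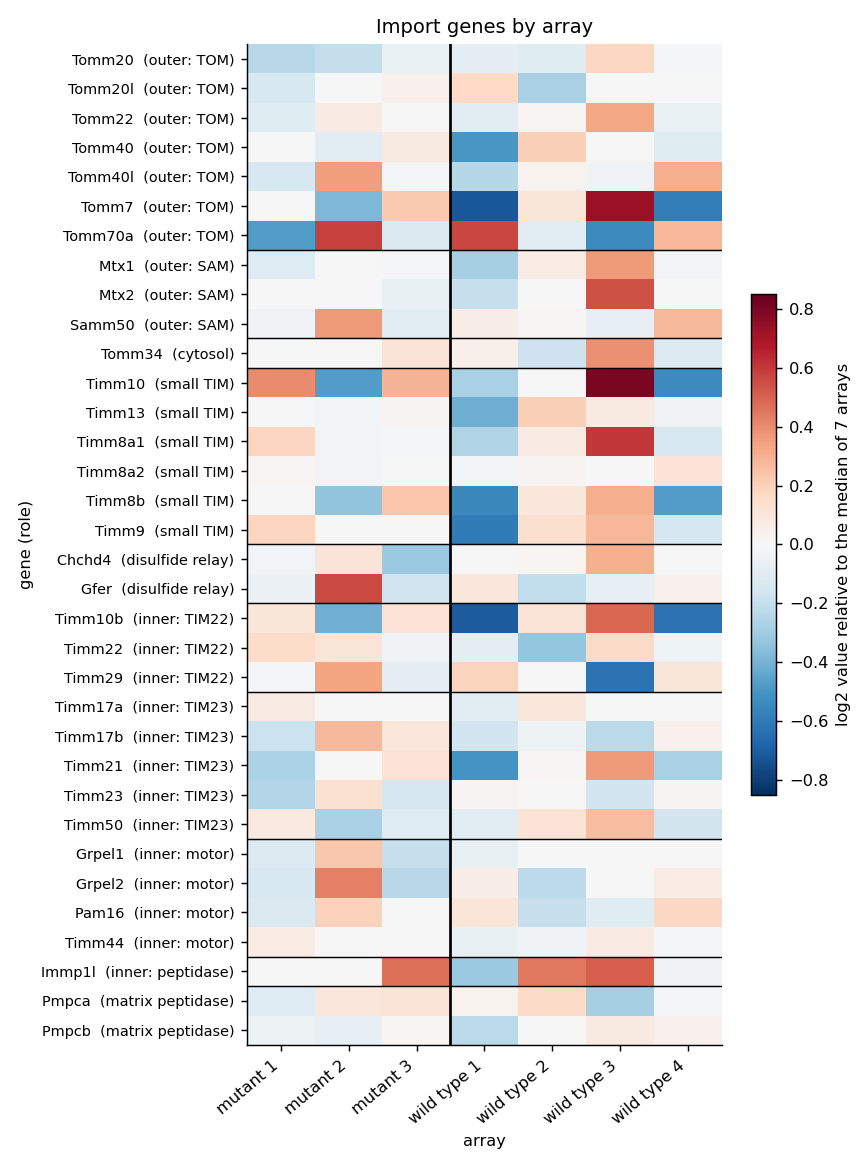
Log2 value of each import gene (rows, grouped by role) in each array (columns), relative to the gene's probe set medians over 7 arrays. Blue is low and red is high. Mutant replicate 2 and wild-type replicates 1 and 4 share a pattern, with Tomm7, Timm10, Timm10b and Timm8b low and Tomm70a high, that crosses the line between genotypes.

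The genotype difference of most import genes had opposite signs in these sets of arrays. Within the 3 arrays, mutant replicate 2 was above the mean of wild-type replicates 1 and 4 in 29 of 34 import genes, where 51.4% of all genes were, with a median of 0.16 against 0.01. Within the other 4, mutant replicates 1 and 3 averaged below wild-type replicates 2 and 3 in 25 of 34, where 55.5% of all genes did, with a median of -0.07 against -0.02. Given these counts on each side of 0, few genes could share a sign, and the share over all genes was not computed. Of the 34, 12 had the same sign in both. Timm22 was among them, at 0.16 and 0.15, as was Tomm20, at -0.16 and -0.18, and Timm29, at 0.19 and 0.27. Chchd4 was at 0.11 and -0.32, Mtx2 at 0.10 and -0.30, and Timm21, a TIM23 subunit that contacts TOM, at 0.39 and -0.26. Outer membrane genes averaged 0.13 within the 3 arrays and -0.14 within the other 4, and inner membrane genes 0.17 and -0.05. Outer minus inner was -0.04 and -0.09. With these 3 arrays as a block, limma called 0 genes at an adjusted p under 0.05 and 0 of the 34 import genes even at an unadjusted p under 0.05, where 912 of all genes had one.

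**Figure D4:**
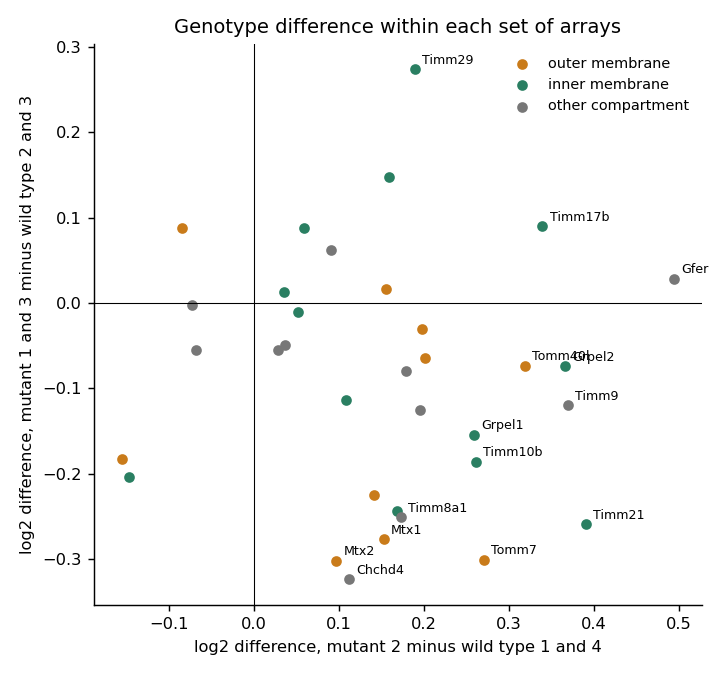
Genotype difference of each import gene within the 3 arrays that stood apart (x axis, log2) and within the other 4 arrays (y axis, log2), coloured by membrane. Of the 34 genes 29 lie right of 0 and 25 below 0, and 12 have the same sign on both axes.

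Probe sets of the same import gene did not always run together over the arrays. Of the 19 import genes with more than 1 probe set, 9 had genotype differences of both signs. Samm50 had a probe set at 0.93, 0.45 and 0.70 in mutant replicate 2 and wild-type replicates 1 and 4, where another in the same level class lay at -0.20, -0.33 and -0.15. Pmpcb had one at 0.25, 0.13 and 0.20 in those arrays and another at -0.38, -0.58 and -0.13. Tomm20 had a probe set at 0.05, 0.26 and 0.26 there and another at -0.66, -0.59 and -0.29. A gene's mean over such probe sets hides movements that cancel. Over all 67 probe sets, differences ran from -0.33 for a Timm50 probe set in the lowest level class to 0.33 for Timm17b, 39 above 0 and 28 below.

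**Figure D5:**
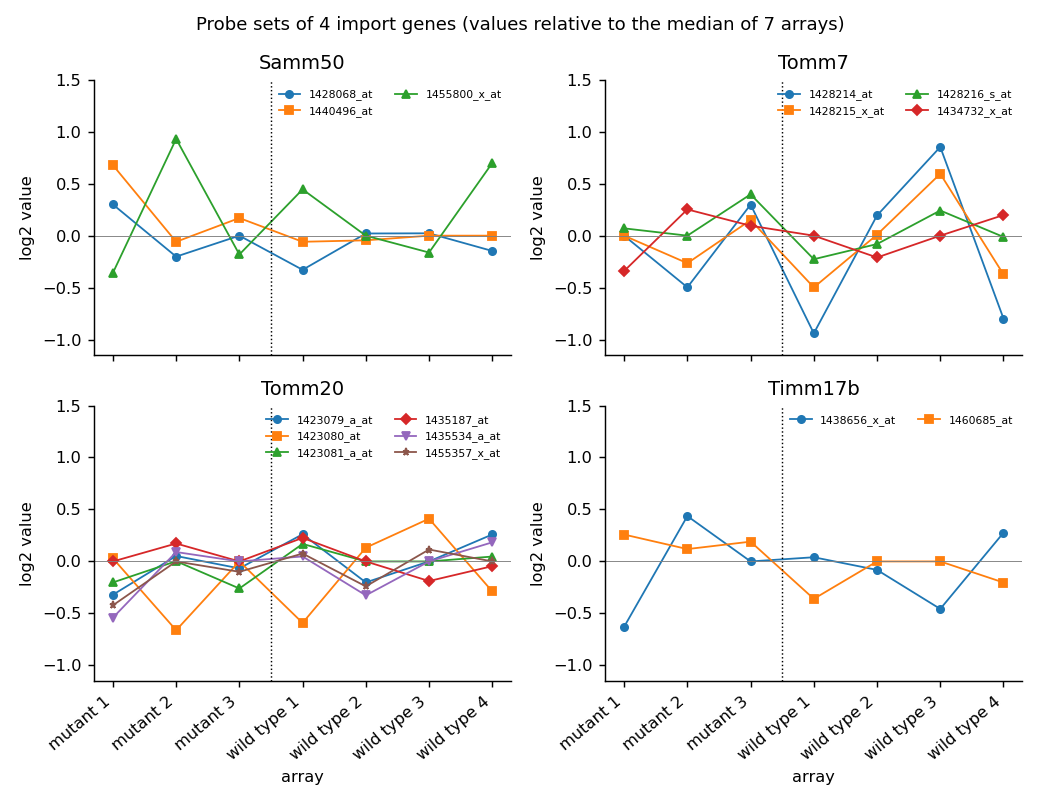
Log2 value relative to the median of 7 arrays (y axis) of every probe set of Samm50, Tomm7, Tomm20 and Timm17b by array (x axis), mutant left and wild type right of the dotted line. One Samm50 probe set peaks at 0.93, 0.45 and 0.70 in mutant replicate 2 and wild-type replicates 1 and 4, where another lies at -0.20, -0.33 and -0.15.

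Partners of the machinery outside the rule were not called either. There were 20 such genes, among them the motor's chaperone, further peptidases, insertases, the MICOS core and the VDAC pores that SAM inserts. Of these, 12 were above 0 and 8 below, with a median of 0.03, where 46.5% of all genes were above 0. A limma unadjusted p under 0.05 was found for 0 of the 20, where 1.44% of all genes had one, so 0 is near that share. Those with the smallest p were Xpnpep3, a peptidase that trims cleaved presequences, at 0.34 ± 0.14 (SE; beyond the range of the 34 import genes), Agk, a lipid kinase that is a further subunit of TIM22 and lay below 0, at -0.12 ± 0.10, and Mipep, the intermediate peptidase, at 0.11 ± 0.10. Xpnpep3 lay at 0.10, 0.25 and 0.18 in the 3 mutants and at -0.11, -0.0051, 0.00 and -0.53 in wild type, so its groups did not overlap. Over all genes, 0.874% had all mutant arrays above wild type and 1.2% all below, and Xpnpep3 was picked for its small p. Without wild-type replicate 4, its lowest array, the difference was 0.21. Leaving out 1 array also brought Mipep down to 0.04 (without wild-type replicate 1) and Agk to -0.07 (without wild-type replicate 2).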

How the data were processed

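Total RNA of 7 quadriceps muscles was extracted with Trizol, and cRNA from 5 ug of it was hybridised to 1 Affymetrix array per mouse, per the labels' protocols. GCOS 4.0 is named in the submitters' processing notes, without the summary, scaling or centring method. The authors deposited log2 values already centred on the median array of each probe set, a median that was exactly 0 in all 45101. The log base was read from the spacing of the numbers and is not stated. In 25 of the 67 import probe sets more than 1 array was exactly 0, so several mice can share a value. Arrays give no read depth, so their number limits the precision.

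Symbols came from the platform annotation, updated through RefSeq identifiers (assembly GRCm38.p6), which matched 34741 of 34945 probe sets with 1 symbol. Probe sets with several symbols (932), none (9211), and 64 controls were left out. The level class of the median array was the most likely of 2 to 4, 4 to 8 and 8 to 16, given the number spacing. Probe sets in a gene's highest class were averaged. Limma 3.58.1 in R 4.3.3 (lmFit, eBayes, two-sided, no covariate, Benjamini-Hochberg over 18193 genes, threshold 0.05) compared 3 mutant with 4 wild-type arrays. The fit was tested on simulated data. Members, roles and lists were chosen with earlier results of these data known. Named genes were those whose groups do not overlap, the 3 of each role with the smallest p, paralogue pairs, genes whose probe sets differ in sign, and the 3 partners with the smallest p. Timm10, Timm13, Timm21, Tomm7 and Tomm20l fall outside it and were picked with their values in view. Whether replicate numbers pair the samples could not be settled. The correlations of same-numbered deviations from group means were -0.47, -0.29 and 0.13 for replicates 1 to 3. Those of replicates 1 and 2 each compare an array of the 3 that stood apart with one of the other 4.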

Additional observations from a re-analysis of the deposited data

Results flagged for a closer look

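In 3 import genes, 1 wild-type array lay far from the other 3 relative to the whole range of the 4. Chchd4 was 0.30 in wild-type replicate 3, against 0.00 to 0.01 in the others. Timm23 was -0.16 in wild-type replicate 3, against 0.00 to 0.03. Grpel1 was -0.060 in wild-type replicate 1, where the other 3 were all exactly 0.00, so the gap there is small in size. The threshold flags about 1 in 20 groups of independent normal values, and 42 groups were examined. Values centred on the median array, with several at exactly 0, need not follow that rate.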

How the results depend on the processing

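No alternative called a gene, among the import genes or over all genes, and the smallest adjusted p over all genes and settings was 0.332, without wild-type replicate 1. Without mutant replicate 1, 1 of the 34, Timm17b at 0.28, had an unadjusted p under 0.05 and a limma adjusted p = 0.962. With the replicate block the counts stayed at 0, with 97 genes at an unadjusted p under 0.05 against 262 without it. The outer minus inner difference kept its sign, which leaving out or splitting arrays could not have turned. The outer mean difference was 0.13 within the 3 arrays that stood apart and -0.14 within the other 4, the inner 0.17 and -0.049, and the median of the import genes 0.16 and -0.074. That median ran from -0.034 (without wild-type replicate 1) to 0.04 when 1 array was left out. The outer mean difference was 0.03 without mutant replicate 1 and 0.02 without wild-type replicate 3, against -0.02 with all arrays. The inner mean difference was 0.011 without mutant replicate 2 and 0.012 without wild-type replicate 1, against 0.04 with all arrays. For the single genes, none called in any setting, signs were loose, and the cause was not tested. Without wild-type replicates 1 and 2 together, the sign turned for 9 named genes: Grpel2 was -0.015, Immp1l -0.086, Pam16 -0.011, Samm50 -0.021, Timm44 -0.0087, Timm9 -0.0093, Tomm34 -0.10, Tomm40l -0.072 and Tomm70a 0.12. With quantile normalization, the sign turned for 6 named genes: Grpel2 was -0.054, Pam16 -0.0061, Pmpcb 0.022, Samm50 -0.088, Timm8a1 0.028 and Tomm40l -0.029. With the 3 arrays that stood apart as a block, chosen after seeing the data, the sign turned for 5 named genes: Grpel1 was 0.011, Immp1l -0.079, Timm10b -0.0071, Tomm34 -0.015 and Tomm70a 0.072. With the replicate number as a block, which is not known to pair the samples, the sign turned for 5 named genes: Immp1l was -0.058, Pmpcb 0.016, Timm10b -0.023, Tomm34 -0.048 and Tomm70a 0.015. With age as a covariate, the sign turned for 3 named genes: Immp1l was -0.071, Tomm34 -0.026 and Tomm70a 0.016. With the mean of all probe sets, the sign turned for 1 named gene: Tomm70a was 0.0078. Leaving out 1 array turned the sign at least once for 22 named genes. Their ranges were Gfer -0.073 to 0.29, Grpel1 -0.14 to 0.071, Grpel2 -0.16 to 0.17, Immp1l -0.15 to 0.12, Mtx1 -0.18 to 0.038 and Mtx2 -0.20 to 0.042. Further ranges were Pam16 -0.056 to 0.10, Pmpca -0.025 to 0.13, Pmpcb -0.071 to 0.030, Samm50 -0.13 to 0.10, Timm10b -0.050 to 0.35 and Timm17a -0.0057 to 0.058. For others they were Timm23 -0.17 to 0.024, Timm29 -0.014 to 0.26, Timm8a1 -0.13 to 0.16, Timm8b -0.0092 to 0.28, Timm9 -0.032 to 0.26 and Tomm22 -0.11 to 0.033. The last were Tomm34 -0.068 to 0.12, Tomm40 -0.042 to 0.19, Tomm40l -0.091 to 0.15 and Tomm70a -0.35 to 0.17. Of the genes whose sign held when 1 array was left out, the ranges were Chchd4 -0.25 to -0.03, Timm50 -0.22 to -0.05, Timm22 0.06 to 0.22, Tomm20 -0.21 to -0.10, Timm17b 0.05 to 0.28, Timm44 0.01 to 0.05 and Timm8a2 -0.05 to -0.0019. Signal over background could not be judged for single arrays because the values are centred.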
